A study of Mus musculus with 13 samples.

Results

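Extracellular vesicle (EV) biogenesis genes in enriched mouse Sertoli cells are described here. They are 10 genes, *Cd9*, *Cd63*, *Cd81*, *Tsg101*, *Pdcd6ip*, *Hgs*, *Rab27a*, *Rab27b*, *Smpd3* and *Sdcbp*, found by exact gene name among the 54281 features of the deposited table. The samples were Sertoli cells of adult C57Bl/6J males (Bl6 wt in the labels), 3 to 5 months old and carrying no transgene, which were enriched from digested testis by sorting for diploid DNA content, large size and strong mitochondrial staining. MSUS stands for separation from the mother at unpredictable times together with unpredictable stress of the mother. As pups, the 7 MSUS males spent 3 h a day on postnatal days 1 to 14 without the mother, who was stressed meanwhile by a cold swim or by restraint. Control males (n = 6) were left undisturbed. The comparison asked whether this stress in early life was followed by different transcript levels in adult Sertoli cells.

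Cells release EVs by several routes. Exosomes arise when the membrane of an endosome buds inward, which fills a multivesicular body with small vesicles, and are set free when that body fuses with the plasma membrane. The budding is carried out by the ESCRT complexes, by the adaptor syntenin together with ALIX, or by the lipid ceramide, and the GTPases RAB27A and RAB27B bring multivesicular bodies to the cell surface. The tetraspanins CD9, CD63 and CD81 are membrane proteins that sit in EVs and serve as their usual markers. Sertoli cells enclose germ cells in the seminiferous tubule and exchange signals with them, and EVs are one carrier of such signals.

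The 3 tetraspanin genes share the role of EV marker, but in these cells the transcript level of *Cd81* lay far above those of *Cd9* and *Cd63*. A promoter window of each is shown as the sequence at an annotated start of these genes. The windows come from RefSeq on build GRCm38.p6, which held an entry for 7 of the 10 genes, and run 5′ to 3′ on the strand of the gene from 250 bases before to 50 bases after the annotated start. *Cd81* is on the + strand at chr7:143052500-143052799, *Cd9* on the − strand at chr6:125494711-125495010 and *Cd63* on the + strand at chr10:128909095-128909394. The *Cd81* and *Cd9* windows lie at the 5′ end of the gene as GENCODE vM21 annotates it, whereas the *Cd63* window lies inside the annotated gene, which begins at 128900989, so it belongs to an internal start and is not a like window. Capitals mark the GC box, GGGCGG read on either strand.
Cd81: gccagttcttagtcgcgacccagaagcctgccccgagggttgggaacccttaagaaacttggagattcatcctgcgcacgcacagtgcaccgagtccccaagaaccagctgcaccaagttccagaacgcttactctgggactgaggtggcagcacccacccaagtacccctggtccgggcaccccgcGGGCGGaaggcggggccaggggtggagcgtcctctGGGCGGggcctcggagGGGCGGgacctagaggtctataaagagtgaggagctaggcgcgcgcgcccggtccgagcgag
Cd9: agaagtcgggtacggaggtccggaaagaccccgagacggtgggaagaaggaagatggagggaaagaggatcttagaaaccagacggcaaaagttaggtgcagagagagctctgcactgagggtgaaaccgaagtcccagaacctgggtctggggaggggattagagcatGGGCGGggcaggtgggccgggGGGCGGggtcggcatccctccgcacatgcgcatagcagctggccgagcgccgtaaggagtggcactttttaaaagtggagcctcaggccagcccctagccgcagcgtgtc
Cd63: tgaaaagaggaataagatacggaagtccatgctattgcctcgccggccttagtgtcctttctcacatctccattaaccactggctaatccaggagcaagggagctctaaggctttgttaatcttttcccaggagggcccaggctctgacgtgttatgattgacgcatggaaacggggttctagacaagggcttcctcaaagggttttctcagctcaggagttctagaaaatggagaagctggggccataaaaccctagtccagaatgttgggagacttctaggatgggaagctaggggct
The *Cd81* window held 3 GC boxes, the *Cd9* window 2 and the *Cd63* window 0. A GC box was present in 35.7% of 32851 RefSeq promoter windows of the same length. The windows held 23 CpG dinucleotides for *Cd81*, 18 for *Cd9* and 6 for *Cd63*, against a median of 7 over all windows. A TATA box, TATAAA on either strand, occurred once, in the *Cd81* window, and in 13.6% of all windows, and CCAAT was found in 0 of the 3. Because the *Cd63* window is at an internal start, its counts are listed for that window alone, and no order of the 3 genes is read from them. The matches describe letters in the windows, and their part in the levels was not tested.

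Each library held between 12701776 and 18649945 estimated counts, of which 20.7% to 26.7% were on features with no gene name and were left out. Levels are given as log2 CPM, the logarithm of the TMM-scaled share of counts (CPM), with a prior count of 2. The labelled cell type was checked against 8 Sertoli cell markers. All 8 were detected in every sample, from *Fshr* with 22.7 CPM to *Clu* with 8660 CPM in controls, and their summed level was 12800 to 15800 CPM in controls and 12800 to 15300 CPM in MSUS samples. Transcripts of elongated spermatids came next as a cell type whose defining markers were all present, with a summed level of 847 to 1380 CPM in controls and 728 to 1760 CPM in MSUS samples. The macrophage list rested on *Mrc1* (470 CPM in controls), with *Lyz2* at 0 in all samples. None of the 11 marker lists passed a test of the difference between the groups (exact permutation test on the mean log2 CPM, two-sided, Benjamini-Hochberg adjusted p of at least 0.631). In such bulk samples, fewer cells of a type and less RNA per cell cannot be told apart. Each sample carries its own number in the labels. The litters were not analysed here, so p-values measure the spread between these samples.

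In control Sertoli cells the 10 genes fell into an abundant and a scarce set. To compare genes, levels were set per kilobase of the longest annotated transcript. *Cd81*, *Sdcbp*, *Tsg101*, *Pdcd6ip* and *Hgs* stayed at or above 4.41 log2 CPM per kb in all 13 samples, whereas *Cd9*, *Cd63*, *Rab27a*, *Smpd3* and *Rab27b* stayed at or below 2.25. The median of the 13411 tested genes with a known length was 2.80 log2 CPM per kb in controls, so it lay between the sets. The abundant set thus held the tetraspanin *Cd81*, the ESCRT genes and the syntenin gene. The scarce set held the other tetraspanins, the ceramide enzyme gene and both *Rab27* genes. Estimates of the scarce genes were not whole numbers in 5 to 13 of 13 samples, as occurs where a read matches transcripts of different features. This was so in 6 samples for *Sdcbp* and in 0 for the other abundant genes. The part of read assignment and of the unnamed features in the split was not tested.

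**Figure D1:**
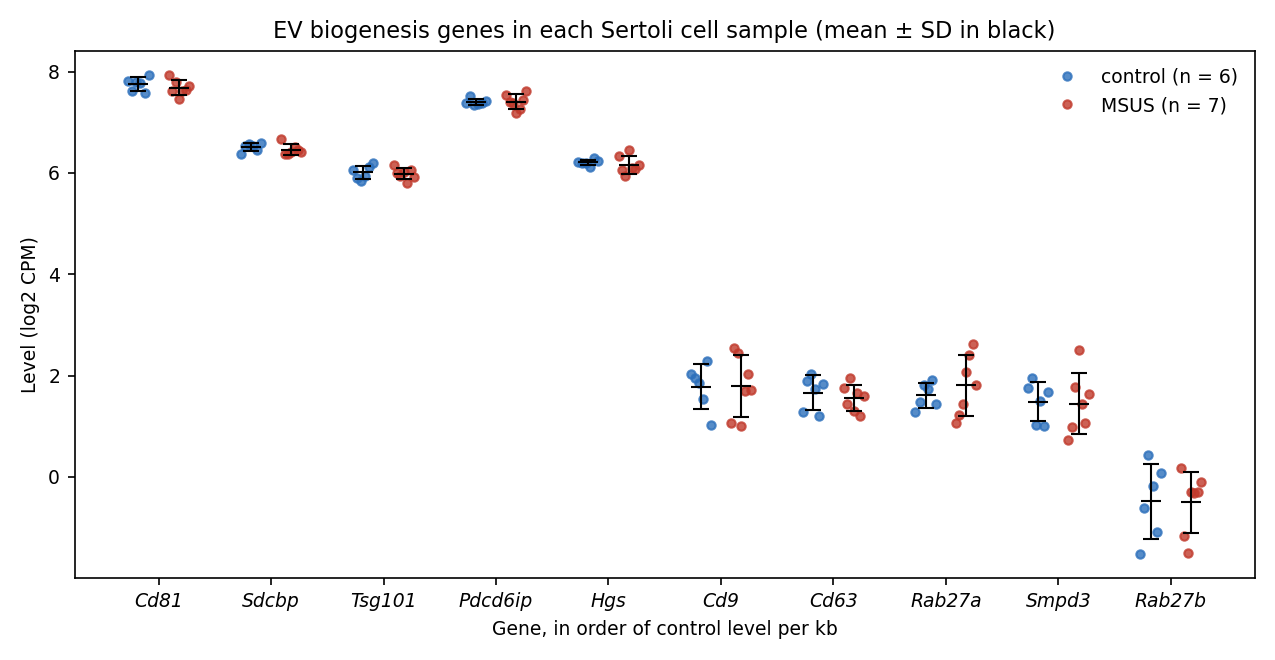
Level in log2 CPM (vertical axis) of each gene (horizontal axis, ordered by control level per kb) in the 6 control samples (blue) and 7 MSUS samples (red), with mean and SD in black. Points of the 5 abundant genes lie between 5.80 and 7.94, those of the 5 scarce genes at or below 2.62, and the groups overlap for every gene.

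*Cd81* was the most abundant of the 10 genes per length, with 7.07 log2 CPM per kb in controls, above 97.9% of the tested genes. It exceeded the next gene, *Sdcbp*, by 2.01 ± 0.14 (SD, n = 6) on this log2 scale. *Sdcbp* (5.06) and *Tsg101* (5.05) did not differ beyond their spread, as the difference was 0.01 ± 0.17 and *Sdcbp* was the higher in 3 of 6 controls. *Tsg101* exceeded *Pdcd6ip* (4.83) by 0.22 ± 0.14 and *Pdcd6ip* exceeded *Hgs* (4.67) by 0.16 ± 0.07, each in 6 of 6 controls. The order within the abundant set depended on the length used. With the median transcript length it became *Cd81* (7.96), *Pdcd6ip* (7.85), *Tsg101* (6.47), *Hgs* (6.39) and *Sdcbp* (6.04).

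Between *Hgs* and *Cd9* (1.48 log2 CPM per kb) lay the gap that separates the sets, with a difference of 3.19 ± 0.44 (SD, n = 6). *Cd9* exceeded *Cd63* (0.13) by 1.35 ± 0.69 in 6 of 6 controls, but not when the longest protein-coding transcript was used as length (1.48 for *Cd9* and 1.52 for *Cd63*), since the longest *Cd63* transcript of 2.89 kb is not protein-coding and the longest coding one has 1.11 kb. *Cd63* and *Rab27a* (-0.05) did not differ beyond their spread (0.19 ± 0.42, higher in 5 of 6 controls). *Smpd3* followed with -0.88 and *Rab27b* was last with -3.27 log2 CPM per kb, above 0.254% of the tested genes. The tested genes had passed a count filter, which *Rab27b* failed. Other genes that failed the filter are therefore missing from that share. The same 5 genes lay above the median tested gene with each of the 3 lengths.

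Within their gene families the 10 genes took different places in control samples. Ranks in all families use the longest annotated transcript and were not computed with other lengths. Among 23 tetraspanins, *Cd81* (7.07 ± 0.13 log2 CPM per kb, SD, n = 6) ranked 2, close after *Cd151* (7.27 ± 0.16). *Cd9* ranked 12 and *Cd63* ranked 17, but with the longest protein-coding transcript they had 1.48 and 1.52 log2 CPM per kb. The tetraspanins of immune cells *Cd37* (-2.80) and *Cd53* (-3.24) were the lowest. Among 12 genes of ESCRT-0 and ESCRT-I, the complexes that gather ubiquitinated cargo and start the budding, *Tsg101* ranked 1 and *Hgs* ranked 3, with *Vps37a* (4.94) between them. *Smpd3* was the last of 5 sphingomyelinase genes, below *Smpd4* (3.46), *Smpd5* (3.11), *Smpd1* (2.67) and *Smpd2* (0.38). Among 22 genes of Rab and Ral GTPases and their effectors, *Rab27a* ranked 14 and *Rab27b* ranked 21, far under *Rab31* (6.90), *Ralb* (6.82), *Rab11a* (6.09) and *Rab7* (5.96).

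Levels of the 10 genes were then compared between MSUS and control males. Limma called 0 of the 9 genes it tested at the 0.05 level, before or after adjustment, while it gave 5.42% of all 14421 genes an unadjusted p-value below that level. edgeR and DESeq2 also found 0 of them, against 5.5% and 5.79% of all genes. Among the 9 genes, limma gave *Cd81* the smallest p-value (adjusted p = 0.925). Log2 fold changes ran from -0.09 to 0.18, with 2 positive, 7 negative and a median of -0.03. Over all genes tested the median was -0.002 and 50.5% were negative. Among all genes, 0 passed an adjusted p of 0.05 with limma, edgeR or DESeq2, and the smallest adjusted p with limma was 0.878. The groups overlapped for all 10 genes, and failed to overlap for 0.139% of the genes tested.

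In build GRCm38, the tetraspanin gene *Cd81* spans 143052739 to 143067934 on chromosome 7. The level of *Cd81* ranged from 7.58 to 7.94 log2 CPM with a median of 7.79 in controls, and from 7.47 to 7.93 with a median of 7.63 in MSUS samples. MSUS replicate 11 was below all controls and the other 6 MSUS samples lay within their range. The means were 7.75 ± 0.13 (SD, n = 6) and 7.68 ± 0.15 (SD, n = 7), which is 216 ± 20.0 and 206 ± 21.4 CPM. This gave a log2 fold change of -0.06 with an SE of 0.07 (limma, adjusted p = 0.925), and its 95% confidence interval spans 0.859 to 1.07-fold. At 1867 to 2851 counts per sample, the counting error of a sample was 0.03 on the log2 scale, below the SD between samples, which holds differences between mice together with those of sorting, amplification and library preparation.

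*Cd9*, a tetraspanin gene on chromosome 6 from 125460266 to 125494791, was measured with 19 to 64 counts per sample. Control levels ranged from 1.02 to 2.29 log2 CPM with a median of 1.90, and MSUS levels from 1.01 to 2.55 with a median of 1.72. The lowest samples of both groups, control replicate 24 and MSUS replicate 11, were alike, and MSUS replicates 5 and 6 exceeded all controls. The log2 fold change was -0.03 with an SE of 0.29 (limma, adjusted p = 0.986), and the interval of 0.641 to 1.49-fold was wide. The estimate was -0.36 with the mitochondrially encoded share of counts as a covariate and -0.40 with the *Malat1* level, while other settings turned it positive. The 3 samples with the highest *Cd9* levels, MSUS replicate 5 (2.55), MSUS replicate 6 (2.45) and control replicate 22 (2.29), had summed levels of 5 peritubular myoid cell markers of 92.2, 52.3 and 62.9 CPM. The other samples had 8.09 to 32.7 CPM, except MSUS replicate 26, which had 68.1 CPM and a *Cd9* level of 1.72. The part of such cells in the *Cd9* level was not tested.

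*Cd63* encodes the tetraspanin of late endosomes and lysosomes and lies on chromosome 10 from 128900989 to 128912822. It had 1.67 ± 0.34 log2 CPM (SD, n = 6) in controls, from 1.21 to 2.03, and 1.56 ± 0.26 (SD, n = 7) in MSUS samples, from 1.20 to 1.95. Of the MSUS samples, 6 lay inside the control range and replicate 23 lay just under it. Limma estimated a log2 fold change of -0.09 with an SE of 0.22 (limma, adjusted p = 0.959), which spans 0.685 to 1.28-fold. Part of the *Cd63* sequence also occurs elsewhere in the transcriptome. Of its 31-base stretches, 15.9% were shared with other annotated genes, 13.4% with the pseudogene *Cd63-ps*, and for *Cd9* the shared part was 20.1%. The estimates of *Cd9* were not whole numbers in 13 of 13 samples and those of *Cd63* in 10, within a tolerance of 0.005, and Salmon gives such values where a read matches transcripts of different features.

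*Hgs*, whose product HRS is the ESCRT-0 subunit that binds ubiquitinated cargo, lies on chromosome 11 from 120467635 to 120483979. Its control levels stayed between 6.12 and 6.29 log2 CPM with a median of 6.20, whereas MSUS levels ran from 5.95 to 6.46 with a median of 6.09. Thus 4 MSUS samples were below all controls, 2 above all controls and 1 between them. The log2 fold change was -0.04 with an SE of 0.08 (limma, adjusted p = 0.949), and the difference in spread was not tested. GENCODE vM21 annotates a second *Hgs* gene at the same place that shares 93.7% of the 31-base stretches, while the estimates of *Hgs* were whole numbers in all 13 samples. How the deposited table treats the second entry is not given in the sources used here.

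*Tsg101*, the ESCRT-I subunit gene on chromosome 7 from 46888949 to 46919969, had 5.85 to 6.19 log2 CPM in controls and 5.80 to 6.15 in MSUS samples. The means were 6.01 ± 0.13 (SD, n = 6) and 5.98 ± 0.11 (SD, n = 7), and among MSUS samples only replicate 13 left the control range. Between the groups *Tsg101* had a log2 fold change of -0.02 with an SE of 0.07 (limma, adjusted p = 0.975), which spans 0.887 to 1.09-fold. *Tsg101* shares 25% of its 31-base stretches with the pseudogene *Tsg101-ps*. Its estimates were also whole numbers in all 13 samples.

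*Pdcd6ip* encodes ALIX, which links syntenin and ESCRT-I to ESCRT-III, and lies on chromosome 9 from 113651744 to 113708259. It was the most even of the 10 genes in controls together with *Hgs*, at 7.40 ± 0.06 log2 CPM (SD, n = 6), and had 7.41 ± 0.15 (SD, n = 7) in MSUS samples. Of the MSUS samples, 2 were below all controls (7.19 and 7.27), 2 above all controls (7.53 and 7.62) and 3 between them. Its log2 fold change was 0.01 with an SE of 0.07 (limma, adjusted p = 0.984), which spans 0.915 to 1.11-fold. None of its 31-base stretches occurs in another annotated gene.

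*Sdcbp* encodes syntenin, the adaptor that ties syndecans to ALIX, and lies on chromosome 4 from 6365650 to 6408423. Control levels ranged from 6.38 to 6.59 log2 CPM with a median of 6.54, and MSUS levels from 6.37 to 6.67 with a median of 6.42. MSUS replicate 1 was the highest of all 13 samples and MSUS replicate 6 the lowest, so the control range lay within the MSUS range. MSUS against control gave a log2 fold change of -0.04 with an SE of 0.06 (limma, adjusted p = 0.937), which spans 0.886 to 1.06-fold. This was the smallest SE among the 9 genes tested.

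*Smpd3*, the gene of neutral sphingomyelinase that releases ceramide from sphingomyelin, lies on chromosome 8 from 106252548 to 106337988. Its level was 1.49 ± 0.39 log2 CPM (SD, n = 6) in controls, from 1.01 to 1.95, and 1.44 ± 0.60 (SD, n = 7) in MSUS samples, from 0.72 to 2.51. The highest value belonged to MSUS replicate 11, which also had the highest summed levels of spermatocyte, round spermatid and elongated spermatid markers of all 13 samples. The next MSUS sample had 1.77, and MSUS replicates 1 and 5 were below all controls. The log2 fold change was -0.03 with an SE of 0.29 (limma, adjusted p = 0.987), which spans 0.639 to 1.5-fold. The part of germ cell RNA in the value of MSUS replicate 11 was not tested.

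*Rab27a* encodes a GTPase that docks multivesicular bodies at the plasma membrane and lies on chromosome 9 from 73044854 to 73097629. Control levels ranged from 1.28 to 1.92 log2 CPM with a median of 1.60, and MSUS levels from 1.06 to 2.62 with a median of 1.82. MSUS replicates 11, 13 and 23 exceeded all controls with 2.07, 2.41 and 2.62, MSUS replicates 1 and 5 were below all controls with 1.06 and 1.22, and the remaining 2 lay among them. For *Rab27a* the log2 fold change was 0.18 with an SE of 0.27 (limma, adjusted p = 0.942), the largest estimate in size among the 9 genes, and its interval spans 0.764 to 1.67-fold. It was 0.05 without MSUS replicate 23, 0.07 without MSUS replicate 13 and 0.31 without MSUS replicate 1, and 0.51 and 0.36 with the mitochondrially encoded share and the *Malat1* level as covariates. Counting error alone amounted to 0.24 on the log2 scale at these 22 to 57 counts per sample, against an SD of 0.25 in controls and 0.60 in MSUS samples.

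*Rab27b*, the gene of the related GTPase that keeps multivesicular bodies near the cell periphery, had only 2 to 15 counts per control sample and 2 to 11 per MSUS sample. It failed the count filter of the limma fit and was compared by itself. Levels ranged from -1.52 to 0.43 log2 CPM with a median of -0.40 in controls, and from -1.50 to 0.17 with a median of -0.30 in MSUS samples, which is inside the control range. The difference was -0.02 (exact permutation test over 1716 splits, two-sided, p = 0.965). With a counting error of 0.53 on the log2 scale, only a large difference would have been detectable at this depth.

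**Figure D2:**
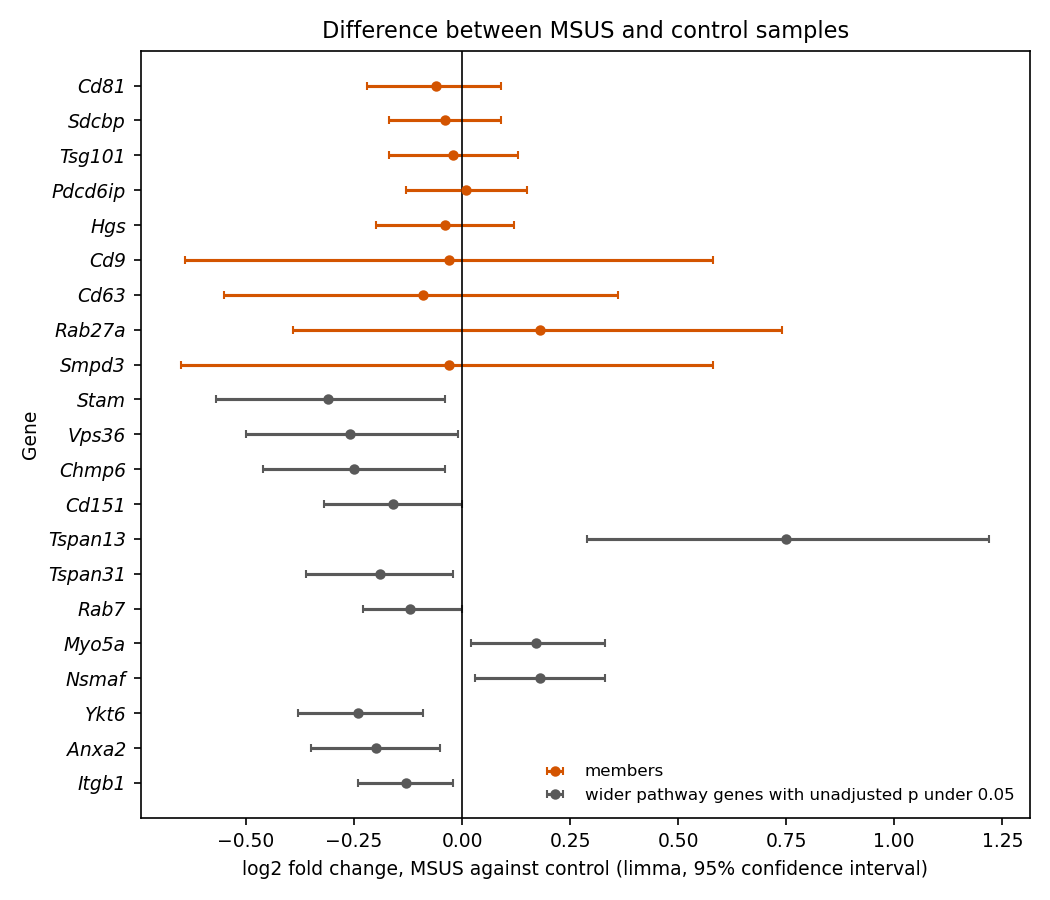
Log2 fold change of MSUS against control (horizontal axis, limma, bars are 95% confidence intervals) for the 9 EV biogenesis genes tested (orange) and the 12 wider pathway genes with an unadjusted p under 0.05 (grey). All orange intervals include 0, and those of *Cd9*, *Cd63*, *Rab27a* and *Smpd3* are the widest among the orange ones.

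Ratios between genes of related role were compared within samples, which takes out the scaling of a sample. None of the 4 pairs passed a test of the difference between the groups (exact permutation test over 1716 splits, two-sided, Benjamini-Hochberg adjusted p = 0.841 for each, smallest possible p of 0.000583). *Cd9* relative to *Cd81* was -5.97 ± 0.56 on the log2 scale in controls and -5.89 ± 0.63 in MSUS samples, a difference of 0.08. *Rab27a* exceeded *Rab27b* by 2.10 ± 0.69 and 2.31 ± 0.72, a difference of 0.21. *Hgs* relative to *Tsg101* was 0.20 ± 0.10 and 0.18 ± 0.16, a difference of -0.02. *Sdcbp* relative to *Pdcd6ip* was -0.89 ± 0.09 and -0.94 ± 0.16, a difference of -0.06. Errors are SD over 6 control and 7 MSUS samples, and the values are not per length, so they compare samples and not genes.

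**Figure D3:**
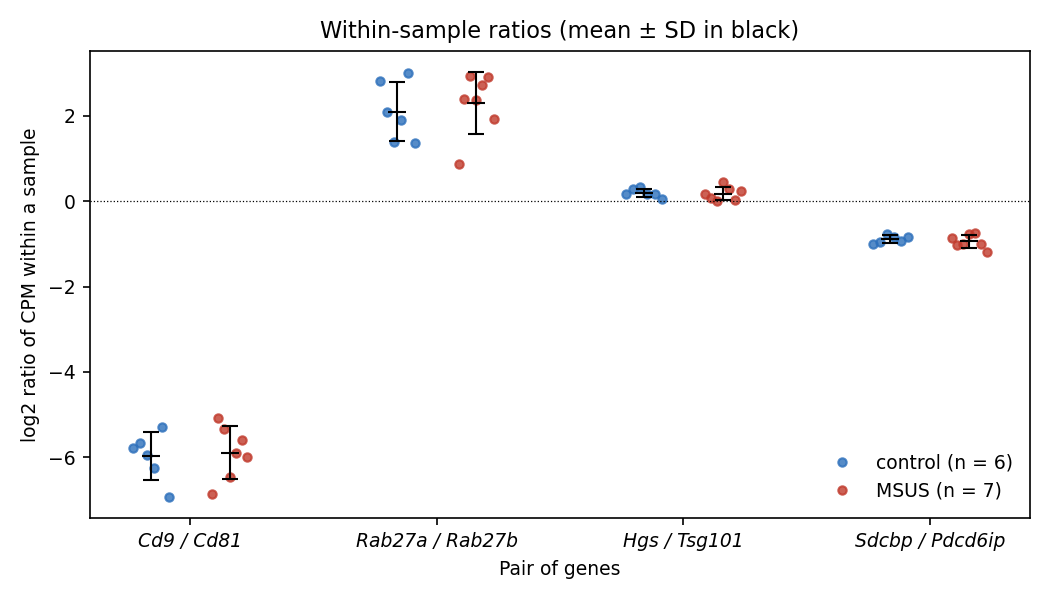
Log2 ratio of CPM of paired genes within a sample (vertical axis) for 4 pairs (horizontal axis) in 6 control samples (blue) and 7 MSUS samples (red), with mean and SD in black. The groups overlap for each pair, and the ratios of the pairs with a scarce gene spread more than those of abundant genes.

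The genes whose level followed that of *Cd81*, the gene with the smallest p, were searched among 7923 genes with a mean of at least 4 log2 CPM. Over the 13 samples, after the group means were taken out, the deviations of *Cd81* went most closely with those of *Lsr* (Pearson's r = 0.95), *Vapb* (r = 0.92) and *Rhox8* (r = 0.92). *Lsr* encodes a lipoprotein receptor of tricellular junctions, *Vapb* a protein of endoplasmic reticulum contact sites and *Rhox8* a homeobox factor of Sertoli cells. The abundant EV biogenesis genes were less alike, with r = 0.44 for *Sdcbp*, 0.43 for *Pdcd6ip*, 0.33 for *Tsg101* and -0.21 for *Hgs*. With the group means left in, which makes it an unlike measure, *Cd81* had r = 0.82 with the mean of the Sertoli cell markers over the same samples. The other 9 genes had r from -0.38 to 0.52 with that mean. These values describe 13 libraries and carry no test, and differences between libraries in depth, scaling and cell purity enter each of the genes compared.

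The surrounding pathway was described with 127 further genes in 10 lists by role, of which 126 were in the table and 114 were tested. Of these, 12 (10.5%) had an unadjusted limma p under 0.05, beside 5.42% of all genes, and 0 passed after adjustment (edgeR 13 and DESeq2 12 unadjusted). For each of the 12 the limma adjusted p was 0.878. The p given below beside its log2 fold change is that of an exact permutation test on log2 CPM, two-sided and unadjusted. The 12 genes were picked by their limma p in these same samples. Their permutation p-values, and the counts of MSUS samples above or below the control mean, therefore describe them and add no support. They were higher in MSUS samples in 3 cases and lower in 9, beside 3.02% and 2.4% of all genes. The median log2 fold change was -0.05, with 71 negative (62.3%) and 43 positive values. Over all genes tested the median was -0.002 and 50.5% were negative. The count of 12 was 2 with the mitochondrially encoded share of counts as a covariate (*Tspan13* and *Ykt6*) and also 2 with the *Malat1* level (*Tspan13* and *Myo5a*), and 6, 7 and 5 without control replicate 9, MSUS replicate 6 and MSUS replicate 26. MSUS replicates 5, 6 and 26 had the highest *Malat1* levels of all samples, 10.81 to 11.27 log2 CPM. The range was 9.16 to 10.7 in controls and 10.16 to 11.27 in all MSUS samples. The mitochondrially encoded share was 1.26% to 2.48% in controls and 1.8% to 3.16% in MSUS samples. As both covariates leaned with the group, a fit with either cannot fully tell the group and the covariate apart.

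Of all genes tested, 5.42% had an unadjusted limma p under 0.05, with 2.4% lower in MSUS samples. In the ESCRT lists, 3 genes had such a p and all were lower. They were *Stam*, the partner of HRS in ESCRT-0 (-0.31, SE 0.13, exact permutation p = 0.0262), the ESCRT-II gene *Vps36* (-0.26, SE 0.12, exact permutation p = 0.0402) and the ESCRT-III gene *Chmp6* (-0.25, SE 0.10, exact permutation p = 0.0181). *Stam* was below the control mean in 6 of 7 MSUS samples, and *Vps36* and *Chmp6* in 7 of 7. With the mitochondrially encoded share and the *Malat1* level as covariates the estimates were -0.29 and -0.28 for *Stam*, -0.14 and -0.10 for *Vps36* and -0.18 and -0.19 for *Chmp6*, and none of them kept an unadjusted limma p-value below the threshold. The lists held 10, 3 and 16 tested genes and had median log2 fold changes of -0.05, -0.15 and -0.01. By level per kb, *Vps37a* (4.94) and *Vps37b* (4.11) led ESCRT-0 and ESCRT-I beside the genes above, *Snf8* (4.67) and *Vps25* (4.58) led ESCRT-II, and *Chmp4b* (6.81) and *Chmp2a* (6.21) led ESCRT-III.

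Of 16 other tetraspanins tested, 1 was higher and 2 were lower in MSUS samples by unadjusted p, beside 3.02% and 2.4% of all genes. The list median was -0.11. *Tspan13* had 1.33 ± 0.42 log2 CPM (SD, n = 6) in controls and 2.04 ± 0.27 (SD, n = 7) in MSUS samples. It was measured with only 15 to 39 counts per control sample and 29 to 62 per MSUS sample, with a counting error of 0.27 on the log2 scale. All 7 MSUS samples were above the control mean, though the groups overlapped, as controls reached 1.99 and the lowest MSUS sample had 1.70. Its log2 fold change was 0.75 with an SE of 0.22 (limma adjusted p = 0.878, exact permutation p = 0.00524), the largest of the 12 in size. Of the 23 tetraspanins listed, *Cd151* had the highest control level per kb of the longest transcript, close before *Cd81*. *Cd151* (-0.16, SE 0.08, exact permutation p = 0.0635) and *Tspan31* (-0.19, SE 0.08, exact permutation p = 0.0367) were lower, *Cd151* by the limma p-value and not by the permutation test. With the mitochondrially encoded share and the *Malat1* level as covariates both lost the call, at -0.05 and -0.0024 for *Cd151* and at -0.11 and -0.06 for *Tspan31*, whereas *Tspan13* kept it at 0.71 and 0.79. *Tspan3* (5.69 log2 CPM per kb) came after *Cd151* among the other tetraspanins.

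Among genes of transport and fusion, the SNARE gene *Ykt6*, whose product acts in the fusion of vesicles with target membranes, had 6.61 ± 0.10 log2 CPM (SD, n = 6) in controls and 6.36 ± 0.14 (SD, n = 7) in MSUS samples. It was below the control mean in 6 of 7 MSUS samples, with MSUS replicate 13 apart at 6.65. The log2 fold change was -0.24 with an SE of 0.07 (limma adjusted p = 0.878, exact permutation p = 0.00758). *Rab7*, the GTPase gene of late endosomes, was lower (-0.12, SE 0.06, exact permutation p = 0.0117) and *Myo5a*, a myosin gene that carries vesicles, was higher (0.17, SE 0.07, exact permutation p = 0.0396). *Ykt6* was -0.19 with the mitochondrially encoded share as covariate, which kept the call, and -0.13 with the *Malat1* level, which ended it. *Rab7* lost the call with both (-0.08 and -0.05), and *Myo5a* with the former (0.15) but not the latter (0.20). The 16 Rab and Ral genes and effectors tested had a median of -0.05, and the 9 SNARE genes a median of 0.00. *Rab31* (6.90) and *Ralb* (6.82) led the former by log2 CPM per kb, and *Ykt6* (5.26) and *Stx4a* (5.11) the latter.

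Of 12 ceramide and sphingolipid genes, *Nsmaf*, whose product activates a neutral sphingomyelinase, was higher in 7 of 7 MSUS samples than the control mean (0.18, SE 0.07, exact permutation p = 0.0169). The list had a median of -0.04, and *Asah1* (5.32) and *Cers2* (5.19) led it by log2 CPM per kb. Of 15 common EV cargo genes tested, *Anxa2* (-0.20, SE 0.07, exact permutation p = 0.0181) and *Itgb1* (-0.13, SE 0.05, exact permutation p = 0.0152) were below the control mean in 7 of 7 MSUS samples. *Anxa2* encodes an annexin and *Itgb1* an integrin subunit. With the mitochondrially encoded share and the *Malat1* level as covariates all 3 genes lost the call, at 0.15 and 0.07 for *Nsmaf*, -0.12 and -0.06 for *Anxa2* and -0.12 and -0.11 for *Itgb1*. The cargo list had a median of -0.06 and was led by *Hspa8* (9.38) and *Basp1* (8.37). Among 8 syndecan and syntenin partners (median 0.02, led by *Sdc4* with 7.86 and *Arf6* with 5.76) and 9 genes of plasma membrane shedding (median 0.07, led by *Nedd4* with 6.56 and *Rhoa* with 5.07), 0 had a limma p under 0.05. Over all genes tested the share with such a p was 5.42%.

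**Figure D4:**
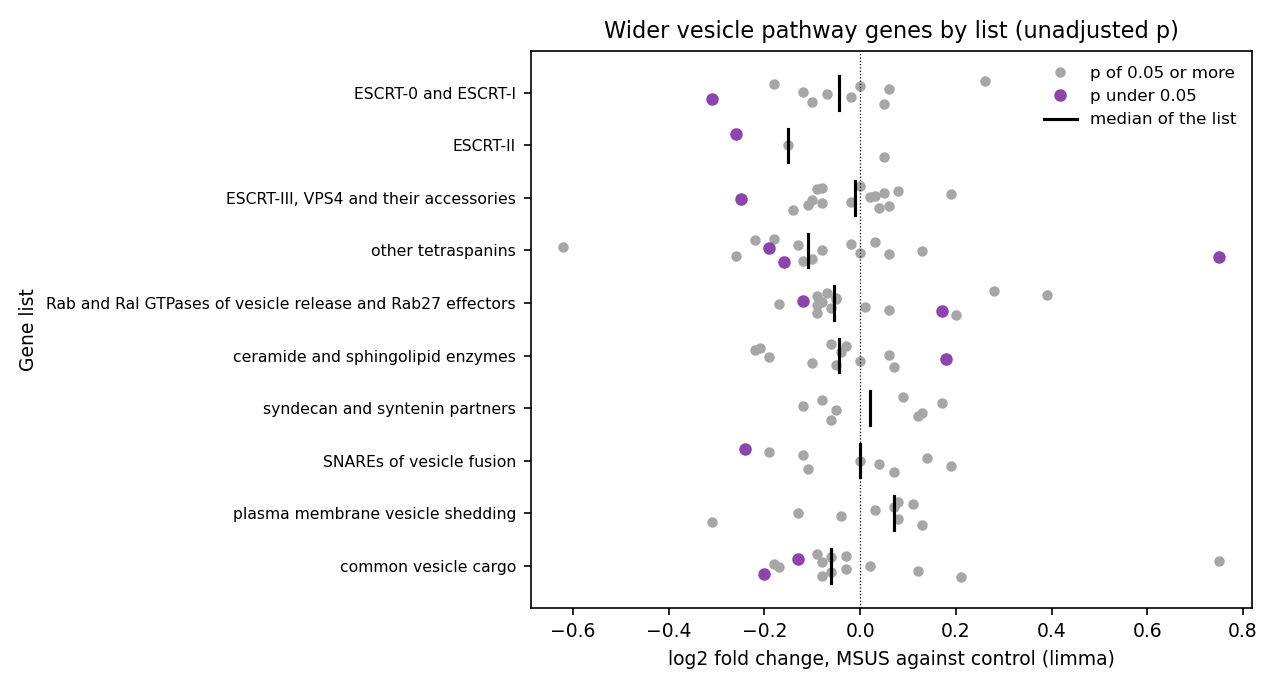
Log2 fold change of MSUS against control (horizontal axis, limma) for the 114 tested genes of 10 wider EV pathway lists (vertical axis), each point being 1 gene, purple where the unadjusted p is under 0.05, with a black bar at the list median. The 12 purple points are spread over 8 lists, with 3 to the right of 0 and 9 to the left.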

How the data were processed

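RNA of enriched Sertoli cells (5 ng per library) was amplified over 12 PCR cycles and sequenced single-end at 100 bp. The authors trimmed reads with Trim Galore 0.6.5, assigned them with Salmon 1.1.0 to GENCODE vM23 transcripts and deposited estimated counts per gene without normalization. How transcripts were summed and named is not given in the sources used here. The table held 0 columns without a sample. The 27170 features lacking a gene name were dropped.

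Estimates were rounded. Genes passing filterByExpr (14421 of 27111) were fitted with limma 3.58.1 voom on TMM-scaled counts (edgeR 4.0.16, R 4.3.3), with Benjamini-Hochberg adjustment over all genes. Alternatives were edgeR's quasi-likelihood test, DESeq2 1.42.0, sample quality weights, other scalings and filters, 3 covariates, other lengths and leaving out each sample. The longest protein-coding transcript as length was added after the data were seen. Code was tested on simulated data. GENCODE vM21, which is older than the authors' vM23 but on the same build (GRCm38), gave lengths, coordinates and shared 31-base stretches and matched 85.9% of named features.

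The members, lists and marker sets were chosen with earlier results of these data known. Named genes are the 10 members, every wider list gene with limma p under 0.05, the 2 highest per kb of each wider list, and the 3 genes most like the member with the smallest p. The best-ranked family members and the neighbours given in the family comparison were named besides. Counting errors cover counting only, since PCR copies without molecular identifiers are not independent molecules.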

Additional observations from a re-analysis of the deposited data

Results flagged for a closer look

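*Ykt6* had 1 value far from the rest of its group. In MSUS replicate 13 its level was 6.65 log2 CPM, against 6.38 in the nearest of the other MSUS samples. The gap was 0.68 of the range of the 7 MSUS samples, above Dixon's critical value of 0.568. Among the 52 groups of values searched this was 1 such case, and chance gives about 2.6. Leaving out each sample in turn, the log2 fold change of *Ykt6* stayed between -0.28 and -0.22 and its unadjusted limma p-value stayed below 0.05. *Ykt6* was picked by its limma p in these same samples (limma adjusted p = 0.878), so these refits describe it and add no support. With the *Malat1* level as covariate the log2 fold change was -0.13 and the limma p-value was above 0.05.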

How the results depend on the processing

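The count of 0 EV biogenesis genes with p under 0.05 held in all 11 other settings and without each of the 13 samples. In 225 refits of single genes, 0 passed and the smallest p was 0.0863 (limma), for *Rab27a* with a log2 fold change of 0.51 beside the mitochondrially encoded share as covariate. Estimates near 0 changed sign in 34 of the refits, and the cause was not tested. *Cd9*, at -0.03, became -0.36 with the mitochondrially encoded share and -0.40 with the *Malat1* level as covariate, but 0.06 with edgeR, 0.06 with DESeq2, 0.15 with sample quality weights, 0.03 with the elongated spermatid score as covariate and 0.0076 as a plain difference in the exact permutation test. *Smpd3* became 0.04 with edgeR, 0.05 with DESeq2, 0.0090 with sample quality weights, 0.09 with the mitochondrially encoded share and 0.05 with the *Malat1* level. *Pdcd6ip* became -0.0038 with sample quality weights, -0.0052 with library size alone, -0.03 with the mitochondrially encoded share and -0.06 with the *Malat1* level. *Tsg101* became 0.0095 and 0.03 with these covariates, and with the *Malat1* level *Cd81* became 0.0069 and *Hgs* 0.02. *Rab27b* became 0.02 without the count filter. Without 1 sample, the log2 fold change ranged from -0.17 to 0.10 for *Cd9*, 0.05 to 0.31 for *Rab27a*, -0.05 to 0.01 for *Tsg101*, -0.02 to 0.05 for *Pdcd6ip*, -0.21 to 0.10 for *Smpd3* and -0.22 to 0.17 for *Rab27b*. The difference between groups in the ratio of *Cd9* to *Cd81* then ranged from -0.11 to 0.24, and that of *Hgs* to *Tsg101* from -0.06 to 0.01. All genes with p under 0.05 numbered 1182 without the count filter, 1172 with the spermatid score, 403 with the mitochondrially encoded share and 395 with the *Malat1* level, against 781. The wider pathway count of 12 was 2 with either of the last 2 covariates and ranged from 5 to 18 without 1 sample. Among the 12 genes, *Tspan13* kept an unadjusted p-value below the threshold of 0.05 in all 11 other settings and 13 leave-outs (limma, edgeR or DESeq2). These refits used the same low counts of *Tspan13*, 15 to 62 per sample. *Tspan13* was picked by its limma p in these same samples (limma adjusted p = 0.878), so the refits describe it and add no support. No paired analysis was run, as the labels tie no sample of one group to a sample of the other. Litters and cages were not analysed, and the p-values treat the samples as independent. The 5 scarce genes had counting errors of 0.22 to 0.53 on the log2 scale, and the part of depth in their spread was not tested.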
